A study of Mus musculus with 8 samples.

Results

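The CDK inhibitors and D-type cyclins comprise 10 genes of the mouse genome, which were chosen by gene symbol from the 55471 genes of the count table. They are the 3 CIP/KIP inhibitors Cdkn1a, Cdkn1b and Cdkn1c, the 4 INK4 inhibitors Cdkn2a, Cdkn2b, Cdkn2c and Cdkn2d, and the 3 D-type cyclins Ccnd1, Ccnd2 and Ccnd3. All 10 genes had enough reads to be tested. They were measured by RNA sequencing in SV-LECs, a mouse line of lymphatic endothelial cells that came from mesenteric adventitial tissue and was immortalized with SV40. The study cultured the line in DMEM with 10% FBS, and its section on RNA sequencing names no medium or serum level. Cells were either left untreated (4 libraries) or exposed for 72 h to TGFβ1 at 10 ng/ml (4 libraries). The SV40 genotype is thus shared by all libraries. Both groups come from a single line. The study calls the 4 libraries of a group technical replicates. Each p-value thus covers the spread between these libraries only. The question for these genes is which of them changed in SV-LECs exposed to TGFβ1, and how the make-up of each family changed with them.

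D-type cyclins bind and activate CDK4 and CDK6, and the active complexes phosphorylate the retinoblastoma (RB) family of proteins and so let a cell pass from G1 into S phase. INK4 proteins bind CDK4 and CDK6 and keep them from the D-type cyclins, whereas CIP/KIP proteins bind assembled cyclin-CDK complexes and block above all CDK2. TGFβ is known to arrest many epithelial and endothelial cells in G1, and Cdkn2b and Cdkn1a are textbook targets of its SMAD transcription factors. SV40 large T antigen, the protein that immortalizes cells in many SV40 lines, binds p53 and the RB proteins, and the sources used here do not say which viral genes SV-LECs carry.

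The libraries held between 18952504 and 26386941 counts. The 4 genes tested of the 5 that were listed as a check of the TGFβ response were all higher after TGFβ1. Among them was Ccn2, a matrix protein gene, at a log2 fold change of 2.06. The first principal component of all genes, which separated the groups, held 88.8% of the variance. Of 6 lymphatic endothelial markers, Pdpn and Flt4 were detected, while Prox1, Lyve1, Ccl21a and Reln had at most 3 counts in any library and Ccl21a had 0 in all of them, so the label rests on few of its markers. The 6 lymphatic markers summed to between 344 and 381 CPM (counts scaled to a common library size) in untreated and between 337 and 348 in TGFβ1-treated SV-LECs. Most of this sum was Pdpn, at 322 to 359 CPM in untreated and 308 to 319 CPM in TGFβ1-treated libraries. Pdpn was slightly lower after TGFβ1 (log2 fold change -0.13) and Flt4 higher (0.44). The 6 pan-endothelial markers summed to between 11.5 and 13.1 CPM in untreated and between 22.1 and 23.9 in TGFβ1-treated SV-LECs, nearly all of it Kdr, with Tie1 at 0. The 4 immune markers had at most 3 counts each, with Adgre1 at 0, and summed to at most 0.0482 CPM in untreated and 0.108 CPM in TGFβ1-treated libraries. The 4 epithelial markers summed to between 0.304 and 1.14 CPM in untreated and between 2.36 and 4.11 in TGFβ1-treated libraries, and the part of these marker changes in the results was not tested. In bulk RNA, fewer cells of a type and less RNA per cell cannot be told apart.

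TGFβ1 changed 9 of the 10 genes, and the change cut across the families. After TGFβ1 treatment the 3 D-type cyclins, Cdkn1a and Cdkn2b were higher, whereas Cdkn1b, Cdkn1c, Cdkn2c and Cdkn2d were lower, each in 4 of 4 libraries against every untreated library. Cdkn2a was the only gene of the 10 that did not pass the test. Genes were called by the likelihood ratio test of edgeR at a false discovery rate (FDR, Benjamini-Hochberg, over the 13818 genes tested) under 0.05. The 5 genes called higher stand against a background of 37.6% of all genes tested, the 4 called lower against 38.0%, and the 9 called in either direction against 75.6%. The groups of libraries did not overlap for 9 of the 10 genes, as for 69.8% of all genes, so neither count sets the list apart. A log2 fold change above 1 or below -1 was called for 5 of the 10 genes, against 17.5% of all genes. The median log2 fold change was 0.05 over the 10 genes and -0.0064 over all genes tested.

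**Figure D1:**
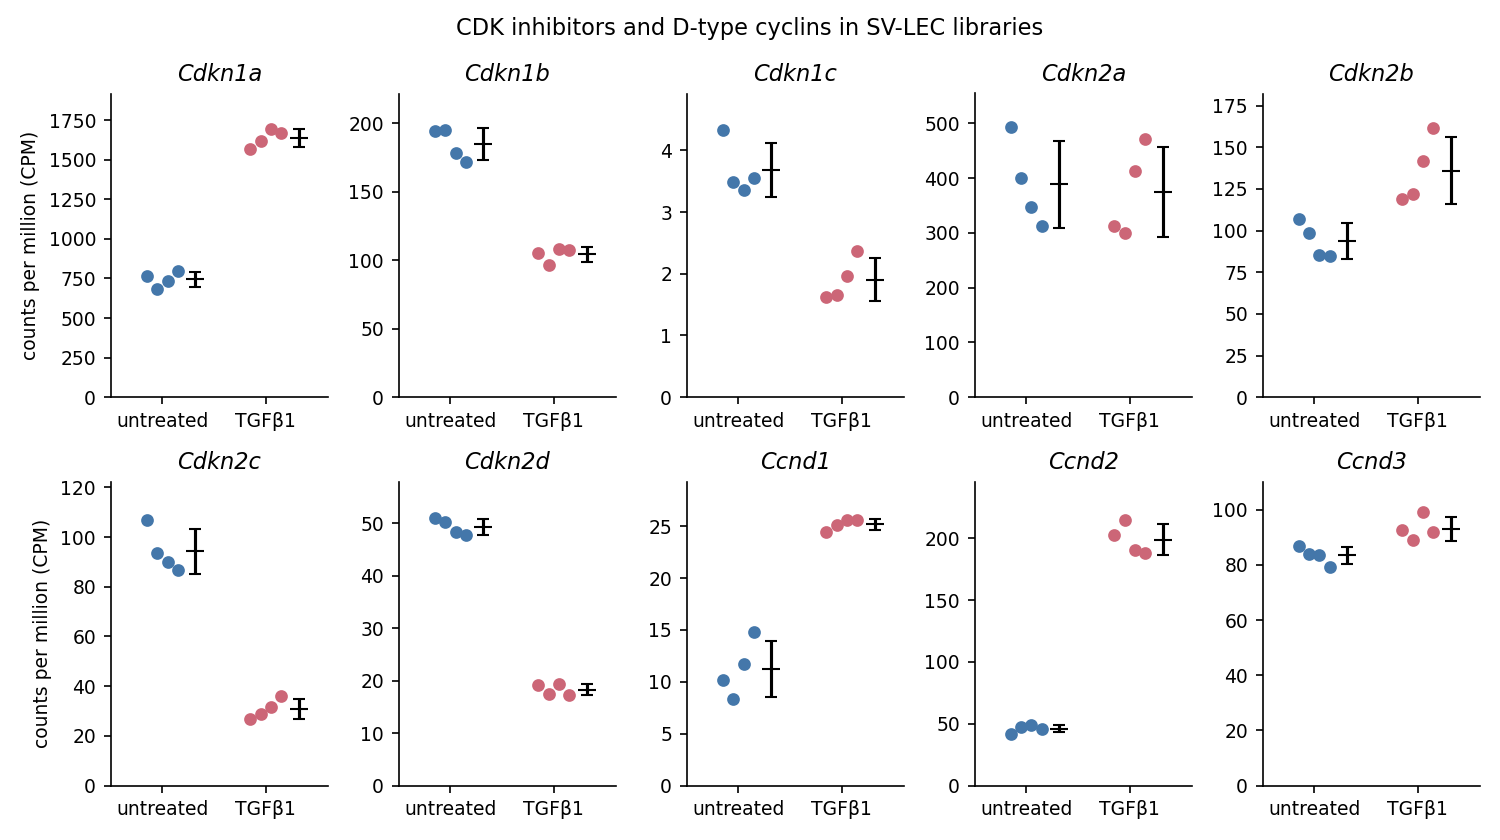
CPM of the 10 genes in each library (points, untreated in blue and TGFβ1-treated in red) with the mean and SD of 4 libraries (black bars); each vertical axis starts at 0. The groups overlap for Cdkn2a, which lay between 312 and 494 CPM in untreated and between 300 and 472 CPM in TGFβ1-treated SV-LECs, and they are apart for the other 9 genes.

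The promoters of inhibitor genes that rose, fell or were not called are shown, since p53, SMAD, E2F and Sp1 are factors known to act on such genes. RefSeq promoters of build GRCm38.p6, from 250 bases before to 50 bases after a transcription start, were found for 7 of the 10 genes with 11 starts. There was no entry for Cdkn1c, Ccnd1 and Ccnd2. Both strands were searched for the GC box GGGCGG, to which Sp1 binds, for the SMAD elements GTCTAGAC or CAGACA, for the E2F elements TTTNGCGC or TTTNCCGC, and for the p53 pair, which is 2 adjoining half-sites of the p53 consensus with at most 1 mismatch. The GC box was held by 9 of the 11 promoters (35.9% of 32544 RefSeq promoters), the SMAD element by 2 (21.0%), the E2F element by 2 (3.53%) and the p53 pair by 1 (0.0891%, 29 promoters). The RefSeq background was not matched for GC content, and some genes count with 2 starts. No matches overlapped each other. A match describes the letters in this window and is not shown to be a site in these cells. In the 6 promoters that follow, which read 5′ to 3′ on the strand of the gene, capitals mark every match to these motifs.
Cdkn1a upstream start, chr17:29090729-29091028, + strand: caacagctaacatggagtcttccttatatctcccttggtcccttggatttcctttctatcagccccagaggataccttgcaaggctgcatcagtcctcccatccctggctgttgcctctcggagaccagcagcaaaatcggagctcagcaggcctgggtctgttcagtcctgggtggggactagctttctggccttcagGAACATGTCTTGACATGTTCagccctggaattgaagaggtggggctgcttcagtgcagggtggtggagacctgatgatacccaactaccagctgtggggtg
Cdkn1a downstream start, chr17:29093519-29093818, + strand: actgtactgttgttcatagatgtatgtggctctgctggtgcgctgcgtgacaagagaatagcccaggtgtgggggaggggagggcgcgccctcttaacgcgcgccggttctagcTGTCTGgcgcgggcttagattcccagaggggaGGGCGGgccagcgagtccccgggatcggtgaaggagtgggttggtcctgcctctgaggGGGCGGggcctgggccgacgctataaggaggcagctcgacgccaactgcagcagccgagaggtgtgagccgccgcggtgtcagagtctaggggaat
Cdkn2a upstream start, chr4:89294570-89294869, - strand: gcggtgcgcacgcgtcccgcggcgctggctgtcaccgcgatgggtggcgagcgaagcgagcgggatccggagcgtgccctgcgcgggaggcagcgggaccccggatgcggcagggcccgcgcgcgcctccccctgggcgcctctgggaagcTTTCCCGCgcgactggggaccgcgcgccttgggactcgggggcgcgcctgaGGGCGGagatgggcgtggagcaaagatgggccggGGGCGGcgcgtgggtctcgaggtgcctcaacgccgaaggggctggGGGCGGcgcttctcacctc
Cdkn2b, chr4:89310983-89311282, - strand: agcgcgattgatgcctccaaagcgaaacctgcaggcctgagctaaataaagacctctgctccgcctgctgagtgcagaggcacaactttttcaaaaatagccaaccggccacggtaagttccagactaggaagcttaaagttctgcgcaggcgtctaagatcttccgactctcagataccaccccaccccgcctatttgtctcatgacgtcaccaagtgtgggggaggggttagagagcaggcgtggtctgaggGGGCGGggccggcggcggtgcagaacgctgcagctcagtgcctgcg
Cdkn2c upstream start, chr4:109666707-109667006, - strand: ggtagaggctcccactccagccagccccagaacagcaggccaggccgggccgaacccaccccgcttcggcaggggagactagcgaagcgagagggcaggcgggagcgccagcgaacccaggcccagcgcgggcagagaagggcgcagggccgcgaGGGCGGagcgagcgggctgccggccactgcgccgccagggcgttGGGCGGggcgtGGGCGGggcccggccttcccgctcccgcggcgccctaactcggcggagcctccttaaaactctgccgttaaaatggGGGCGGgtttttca
Cdkn2d, chr9:21291160-21291459, - strand: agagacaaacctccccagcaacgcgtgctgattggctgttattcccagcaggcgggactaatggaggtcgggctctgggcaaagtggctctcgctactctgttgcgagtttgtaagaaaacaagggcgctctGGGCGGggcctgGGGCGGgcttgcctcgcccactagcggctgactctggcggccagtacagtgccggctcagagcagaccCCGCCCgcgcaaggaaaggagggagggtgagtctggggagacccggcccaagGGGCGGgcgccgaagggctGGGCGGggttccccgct
The Cdkn1a upstream start held the p53 pair at chr17:29090928-29090947, which begins 51 bases before the start and has 1 mismatch, and none of the other motifs. The Cdkn1a downstream start held 2 GC boxes and 1 SMAD element. Both Cdkn2a starts held an E2F element, of which the upstream one is shown with its 3 GC boxes. The upstream start of Cdkn2c and the start of Cdkn2d, of genes which both fell, held 4 and 5 GC boxes and no other match, while the second start of Cdkn2c held no GC box and 1 SMAD element. The promoter of Cdkn2b, which rose, held 1 GC box, so the GC box did not divide the genes by direction.

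Among the CIP/KIP inhibitors, Cdkn1a rose while Cdkn1b and Cdkn1c fell. Cdkn1a (ENSMUSG00000023067, chr17:29090976-29100727) encodes p21, which inhibits CDK2 complexes and is the best known target of p53 in cell cycle arrest. Its values were 767, 686, 732 and 798 CPM in untreated and 1567, 1622, 1694 and 1670 CPM in TGFβ1-treated SV-LECs. All 4 treated libraries lay above every untreated one, and the spread within a group was small beside the gap. The mean rose from 746 ± 48.3 to 1638 ± 56.0 CPM (SD, n = 4), 2.197-fold, with a log2 fold change of 1.14 (SE 0.0504) and an edgeR FDR of 1.33e-108. Of the 75-base stretches of its exons, 1.41% also occur in other genes on the same strand and 7.02% in genes on the opposite strand. Among the other 9 genes, stretches shared on the same strand were found in Ccnd3 alone.

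Cdkn1b (ENSMUSG00000003031, chr6:134920401-134925513) encodes p27, the inhibitor that holds resting cells out of the cycle and is controlled largely through its protein stability. It stood at 195, 195, 178 and 172 CPM in untreated and at 105, 96.3, 108 and 107 CPM in TGFβ1-treated SV-LECs. The highest treated library was well under the lowest untreated one. The log2 fold change was -0.83 (SE 0.0550, edgeR FDR 1.06e-49), from 185 ± 11.7 to 104 ± 5.43 CPM (SD, n = 4). Its relation to Cdkn1a therefore shifted: per kilobase, Cdkn1a was 5.19 ± 0.597 times the level of Cdkn1b in untreated and 20.2 ± 1.054 times in TGFβ1-treated libraries (SD, n = 4).

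Cdkn1c (ENSMUSG00000037664, chr7:143458339-143461050) encodes p57, the product of an imprinted gene with a role in development. It was the least abundant of the 10 genes per kilobase in both groups, with 90, 93, 77 and 70 counts in untreated and 30, 34, 40 and 61 counts in TGFβ1-treated libraries. These counts correspond to 4.34, 3.49, 3.36 and 3.55 CPM in untreated and 1.62, 1.66, 1.97 and 2.37 CPM in TGFβ1-treated SV-LECs. The groups did not overlap, although the gap was narrower than for Cdkn1b in relation to the spread. The log2 fold change was -0.93 (SE 0.161, edgeR FDR 1.17e-08). An antisense gene, Gm44732, covers 30.7% of its exon bases and had 0 to 2 counts. In the same imprinted region, the antisense transcript Kcnq1ot1 was 0.437 ± 0.129 CPM in untreated and 0.946 ± 0.369 CPM in TGFβ1-treated libraries (SD, n = 4, log2 fold change 1.06, edgeR FDR 0.00140). It had only 11, 15, 8 and 6 counts in untreated and 24, 13, 25 and 16 in TGFβ1-treated libraries. Its highest untreated library (0.563 CPM) was close to its lowest treated one (0.621 CPM). The call was lost when genes under 1 CPM were filtered out, since Kcnq1ot1 was then not tested.

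The INK4 family split as well, with 1 gene higher, 2 lower and 1 not called. Cdkn2a (ENSMUSG00000044303, chr4:89274471-89294653) is unusual in that its 2 transcripts start at separate first exons and encode different proteins, p16INK4a, which inhibits CDK4 and CDK6, and p19ARF, which holds back MDM2 and so stabilizes p53. Counts per gene cannot separate the transcripts. The gene stood at 494, 401, 347 and 312 CPM in untreated and at 312, 300, 413 and 472 CPM in TGFβ1-treated SV-LECs. The groups overlapped over nearly their whole range, and the coefficient of variation within a group, 20.4% and 21.98%, was above that of every other inhibitor. The log2 fold change was -0.05 (SE 0.147), with an edgeR FDR of 0.744 and a 95% interval from -0.34 to 0.23. Changes within that interval, in either direction, were not excluded by this fit. Leaving out 1 library moved the value between -0.19 and 0.08, and it turned positive without untreated library 1, without TGFβ1-treated library 1 and without TGFβ1-treated library 2.

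Cdkn2b (ENSMUSG00000073802, chr4:89306299-89311039) lies 11645 bases from Cdkn2a and encodes p15INK4b, the INK4 protein best known as a target of TGFβ. Its values were 107, 98.7, 85.4 and 84.8 CPM in untreated and 119, 122, 141 and 162 CPM in TGFβ1-treated SV-LECs. The treated libraries were all above the untreated ones, but the lowest treated and the highest untreated value were close. The mean rose from 94.0 ± 10.8 to 136 ± 19.9 CPM (SD, n = 4), with a log2 fold change of 0.53 (SE 0.0970, edgeR FDR 8.94e-08), the smallest change of the inhibitors that passed. Per kilobase, Cdkn2b was 0.182, 0.207, 0.208 and 0.229 times the level of its neighbour Cdkn2a in the untreated libraries and 0.321, 0.342, 0.289 and 0.289 times in the TGFβ1-treated ones. That ratio did not overlap between the groups, although the level of Cdkn2a did. Mtap, a gene of polyamine metabolism that lies 93389 bases from Cdkn2a on the other side, was 111 ± 1.90 CPM in untreated and 103 ± 4.29 CPM in TGFβ1-treated SV-LECs (SD, n = 4, log2 fold change -0.11, edgeR FDR 0.0220). Without untreated library 3 or TGFβ1-treated library 1 or 2, only 1 of the 2 neighbours called lower, Mtap and Nap1l4 (beside Cdkn1c, -0.12), was still called, as at an FDR of 0.01, and neither was called when tested against a fold change of 1.2.

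Cdkn2c (ENSMUSG00000028551, chr4:109660876-109667189) encodes p18INK4c and showed the steepest fall of the 10 genes. It dropped from 107, 93.7, 89.8 and 86.6 CPM in untreated to 26.8, 28.9, 31.7 and 36.02 CPM in TGFβ1-treated SV-LECs. Every treated library was far under every untreated one. The log2 fold change was -1.61 (SE 0.0869, edgeR FDR 3.69e-73). Cdkn2d (ENSMUSG00000096472, chr9:21288410-21291407), which encodes p19INK4d, fell nearly as far, from 50.9, 50.1, 48.3 and 47.8 CPM to 19.1, 17.5, 19.3 and 17.3 CPM. Its libraries were the most uniform of the INK4 genes, and the log2 fold change was -1.43 (SE 0.0596, edgeR FDR 3.81e-130). The INK4 genes of the treated cells were thus of another make-up: per kilobase, Cdkn2b was 1.92 ± 0.0833 times the level of Cdkn2c in untreated and 8.50 ± 0.240 times in TGFβ1-treated libraries (SD, n = 4).

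The D-type cyclins were all upregulated, by very different amounts. Ccnd2 (ENSMUSG00000000184, chr6:127125162-127152193) encodes cyclin D2, and its rise was the largest change of the 10 genes in either direction. It stood at 41.9, 47.6, 48.8 and 45.9 CPM in untreated and at 203, 215, 190 and 188 CPM in TGFβ1-treated SV-LECs. The gap between the groups was many times the spread within them. The mean rose from 46.1 ± 2.99 to 199 ± 12.3 CPM (SD, n = 4), 4.32-fold, with a log2 fold change of 2.11 (SE 0.0589, edgeR FDR 2.71e-267), which ranked 452 among the rises of all 13818 genes tested.

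Ccnd1 (ENSMUSG00000070348, chr7:144929931-144939925) encodes cyclin D1, the D-type cyclin that growth factor signalling is best known to induce. Its values were 10.2, 8.34, 11.7 and 14.8 CPM in untreated and 24.4, 25.1, 25.6 and 25.6 CPM in TGFβ1-treated SV-LECs. The untreated libraries were spread widely, with a coefficient of variation of 24.2%, whereas that of the treated libraries was 2.13%. The mean rose from 11.3 ± 2.72 to 25.2 ± 0.536 CPM (SD, n = 4), with a log2 fold change of 1.17 (SE 0.126, edgeR FDR 1.12e-19). The neighbouring gene Lto1 runs on the opposite strand over 23.4% of the exon bases of Ccnd1 and had 343 to 620 counts, with a log2 fold change of 0.41. The kit kept strand, but the strand setting of the counting was not given in the sources used here, so the part of Lto1 reads in the count of Ccnd1 was not tested.

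Ccnd3 (ENSMUSG00000034165, chr17:47505051-47599691), which encodes cyclin D3, barely moved. It was at 86.8, 83.9, 83.6 and 79.2 CPM in untreated and at 92.8, 88.8, 99.0 and 91.7 CPM in TGFβ1-treated SV-LECs. The groups stood apart by less than the range within either of them. The log2 fold change was 0.16 (SE 0.0493, edgeR FDR 0.00212). The call ended when libraries were scaled by total counts, where the log2 fold change was 0.09 with an edgeR FDR of 0.0835, and when the change was tested against a fold change of 1.2. Bysl, on the opposite strand, shares 4.11% of its exon bases.

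**Figure D2:**
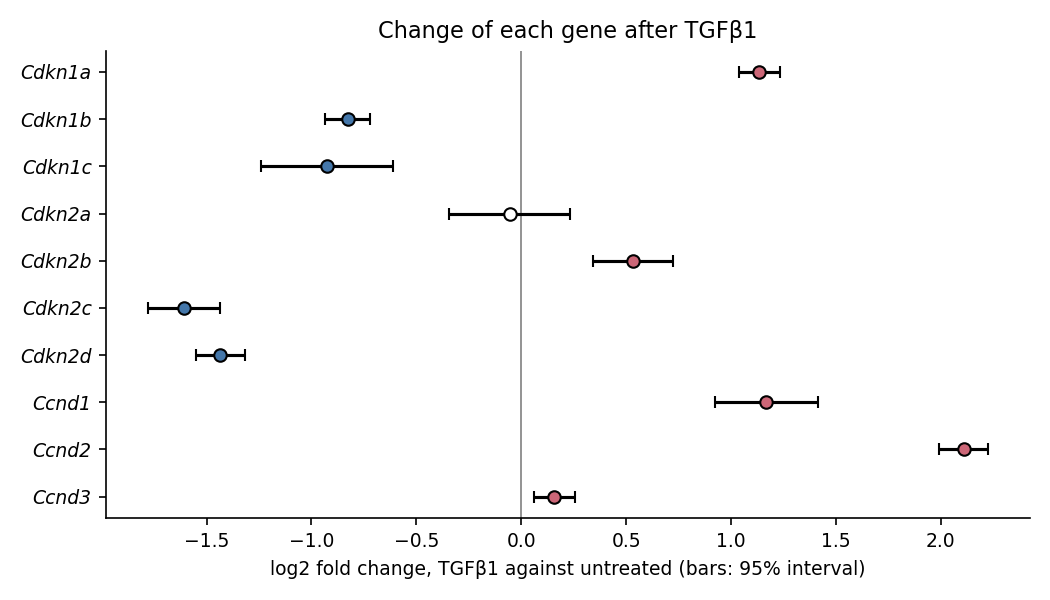
Log2 fold change of each of the 10 genes, TGFβ1-treated against untreated SV-LECs, from edgeR with bars for the 95% interval; red points were called higher, blue points lower and the open point was not called. The values run from -1.61 for Cdkn2c to 2.11 for Ccnd2, and only the bar of Cdkn2a crosses 0.

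Levels were compared between genes per kilobase of exon, as RPKM (CPM divided by the exon length in kilobases), with normalized library sizes. In untreated SV-LECs the order was Cdkn2a (332 ± 67.7 RPKM), Cdkn1a (210 ± 13.6), Cdkn2b (67.6 ± 7.74), Cdkn1b (40.6 ± 2.57), Cdkn2c (35.1 ± 3.34), Cdkn2d (31.3 ± 0.932), Ccnd3 (9.50 ± 0.358), Ccnd2 (4.89 ± 0.318), Ccnd1 (2.39 ± 0.578) and Cdkn1c (1.81 ± 0.216; SD, n = 4). The libraries of neighbours in this order overlapped for Cdkn1b and Cdkn2c, for Cdkn2c and Cdkn2d, and for Ccnd1 and Cdkn1c. In TGFβ1-treated SV-LECs Cdkn1a (461 ± 15.8 RPKM) stood above Cdkn2a (319 ± 70.2), followed by Cdkn2b (97.8 ± 14.3), Cdkn1b (22.9 ± 1.19), Ccnd2 (21.1 ± 1.31), Cdkn2d (11.6 ± 0.679), Cdkn2c (11.5 ± 1.48), Ccnd3 (10.6 ± 0.489), Ccnd1 (5.35 ± 0.114) and Cdkn1c (0.934 ± 0.170). Here Cdkn1b overlapped Ccnd2, and Cdkn2d, Cdkn2c and Ccnd3 overlapped their neighbours. The order between cyclins and inhibitors depends on the length taken for a gene: with the longest transcript in place of all exons, Ccnd2 came 4th and Ccnd3 5th in treated libraries, ahead of Cdkn1b, while the order of the untreated means stayed as it was.

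The most abundant D-type cyclin changed from Ccnd3 to Ccnd2. Ccnd2 made up 27.0%, 30.9%, 30.1% and 28.7% of the summed level of the 3 cyclins per kilobase in the untreated libraries, and 57.8%, 59.6%, 54.8% and 55.7% in the TGFβ1-treated ones. Ccnd3 went the other way, from 59.9%, 58.3%, 55.4% and 52.96% to 28.3%, 26.5%, 30.5% and 29.2%. The groups did not overlap for either gene. The shares of a library sum to the whole, so they are not separate results, and the level of Ccnd3 itself did not fall. The share of Ccnd2 rose from 29.2% ± 1.71 to 57.0% ± 2.16 and that of Ccnd3 fell from 56.7% ± 3.10 to 28.6% ± 1.70 (SD, n = 4; exact two-sided permutation test p = 0.0286 for each, the smallest p that 4 against 4 libraries allow, and 0.0317 after Benjamini-Hochberg adjustment over 10 shares). The share of Ccnd1 was 14.2% ± 3.18 in untreated and 14.4% ± 0.606 in TGFβ1-treated libraries (SD, n = 4, exact two-sided permutation test p = 0.857). The summed level of the 3 cyclins was 16.5, 16.4, 17.2 and 17.0 RPKM in untreated and 37.3, 38.3, 37.0 and 35.8 RPKM in TGFβ1-treated SV-LECs, a ratio of means of 2.21. With the longest transcript as length, Ccnd3 was at 21.6 ± 0.814 and Ccnd2 at 7.28 ± 0.473 RPKM in untreated libraries (SD, n = 4). In TGFβ1-treated libraries Ccnd3 was then at 24.1 ± 1.11 and Ccnd2 at 31.4 ± 1.94 RPKM. The sizes of the shares and of the ratio of means thus depend on the length taken.

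The inhibitors shifted towards Cdkn1a. Of the summed level of the 7 inhibitors per kilobase, Cdkn1a made up 25.96%, 26.9%, 30.8% and 34.3% in the untreated libraries and 52.6%, 54.1%, 48.7% and 45.3% in the TGFβ1-treated ones. Cdkn2a went from 50.7%, 47.7%, 44.3% and 40.7% to 31.7%, 30.3%, 35.9% and 38.8%. On this scale Cdkn2a was the most abundant inhibitor in each untreated library and Cdkn1a in each treated one. With the longest transcript as length, the order turned in untreated library 4, at 349 RPKM for Cdkn2a and 384 RPKM for Cdkn1a, and held in the other libraries. The mean shares of Cdkn2c (4.90% ± 0.0909 to 1.24% ± 0.0497), Cdkn2d (4.39% ± 0.346 to 1.27% ± 0.163), Cdkn1b (5.69% ± 0.372 to 2.49% ± 0.204) and Cdkn1c (0.252% ± 0.0118 to 0.100% ± 0.00783) fell, and that of Cdkn2b rose from 9.42% ± 0.324 to 10.5% ± 0.457 (SD, n = 4). Each of the 7 shares gave an exact two-sided permutation p = 0.0286 and 0.0317 after adjustment over 10 shares. The 7 shares of a library sum to the whole, so they are not separate results. The share of Cdkn2a fell although its level was not called (edgeR FDR 0.744). The rise in the share of Cdkn2b was lost with the longest transcript as length, where its share changed by 0.281 percentage points against 1.13 (exact permutation p = 0.314).

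**Figure D3:**
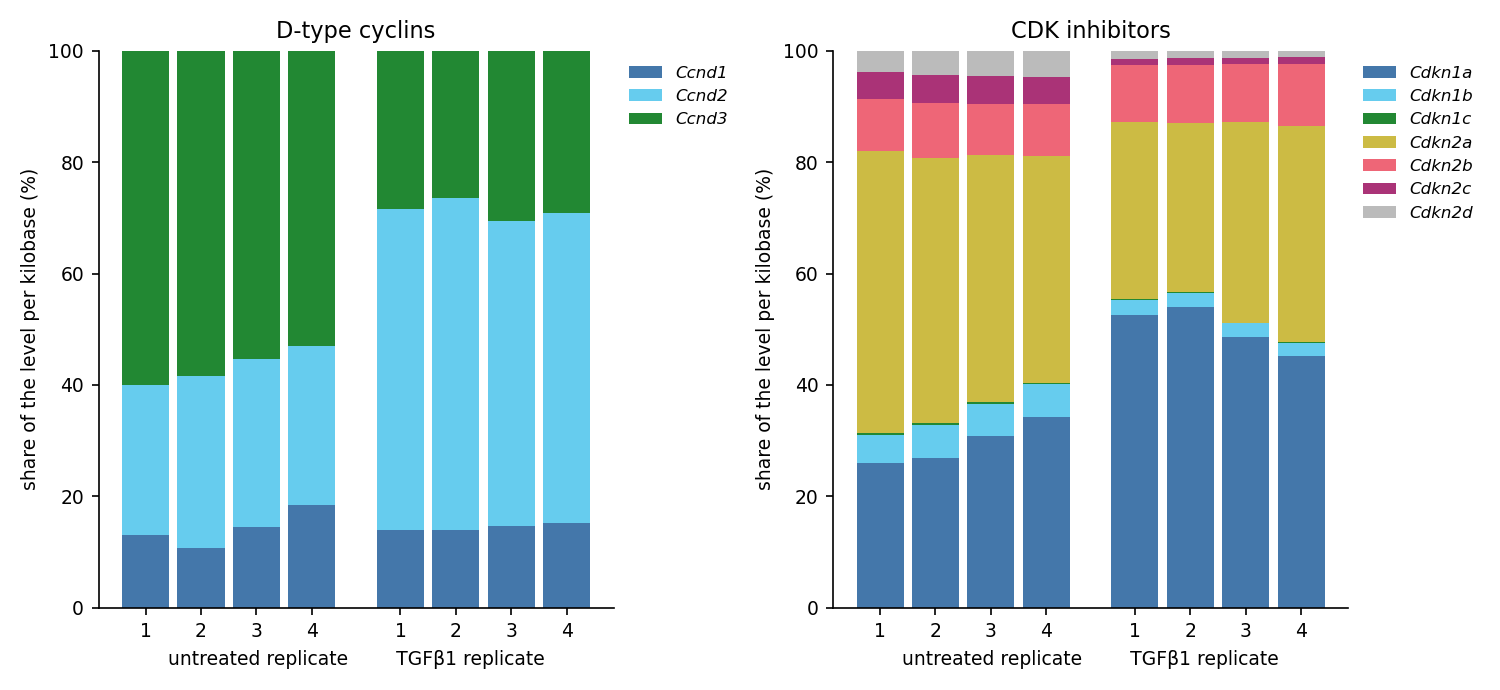
Share of each gene in the summed level per kilobase (%, stacked to 100) of the D-type cyclins (left) and of the CDK inhibitors (right) in each of the 8 libraries. In every TGFβ1-treated library Ccnd2 holds more than in any untreated one (54.8% to 59.6% against 27.0% to 30.9%), and Cdkn1a likewise (45.3% to 54.1% against 25.96% to 34.3%).

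Summed over the families, the CIP/KIP inhibitors rose from 252 ± 12.4 to 485 ± 16.4 RPKM (SD, n = 4), almost all of it Cdkn1a. The INK4 inhibitors were at 466 ± 79.4 RPKM in untreated and 440 ± 85.6 RPKM in TGFβ1-treated SV-LECs, and without Cdkn2a at 134 ± 11.8 and 121 ± 15.6 RPKM, so neither sum differed beyond its spread. The level of the 7 inhibitors over that of the 3 D-type cyclins was 50.4, 43.8, 38.8 and 38.4 in untreated and 22.5, 22.1, 26.5 and 29.0 in TGFβ1-treated libraries. This RNA ratio was lower in every treated library, since the cyclins rose by a larger factor than the inhibitors. These sums are descriptions of RNA levels and were not tested. They take all exons as the length of a gene, and the sizes of the sums and of the ratio depend on that choice.

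The libraries of a group differed in how expression ran with the GC content of genes, and for some of the 10 genes the libraries stood in the same order; the part of GC content in their levels was not tested beyond the covariate fit. The slope of log2 CPM on the GC content of genes, per 10 points of GC, ran from -0.0628 to 0.0732 in the untreated and from -0.0513 to 0.0497 in the TGFβ1-treated libraries. The order of the libraries by the level of Cdkn2a was the same as their order by this slope in both groups. In the untreated group, Cdkn2b, Cdkn2c, Cdkn2d and Ccnd3 followed that order too, whereas Cdkn1a, Cdkn1b, Cdkn1c, Ccnd1 and Ccnd2 did not. In the TGFβ1-treated group Cdkn2a alone followed the whole order, and Ccnd2 (GC content 50.3%) had the reverse order. Cdkn1c, Cdkn2b and Cdkn2c departed from the slope order there only in that TGFβ1-treated libraries 1 and 2 changed places. The slopes of these libraries were -0.0313 and -0.0513. The transcripts of Cdkn2a have a GC content of 59.1%, near the upper end of the genes tested (median 50.05%, 95th percentile 59.4%). Those of Cdkn1c have 59.8%. Its libraries did not stand in the whole order of the slope in either group, although its highest library had the highest slope in both. With the slope as a covariate in edgeR, an alternative added after the data were seen, the log2 fold change of Cdkn2a was -0.06 with an FDR of 0.178, so the gene was not called in that fit either, and the other 9 genes kept their calls.

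**Figure D4:**
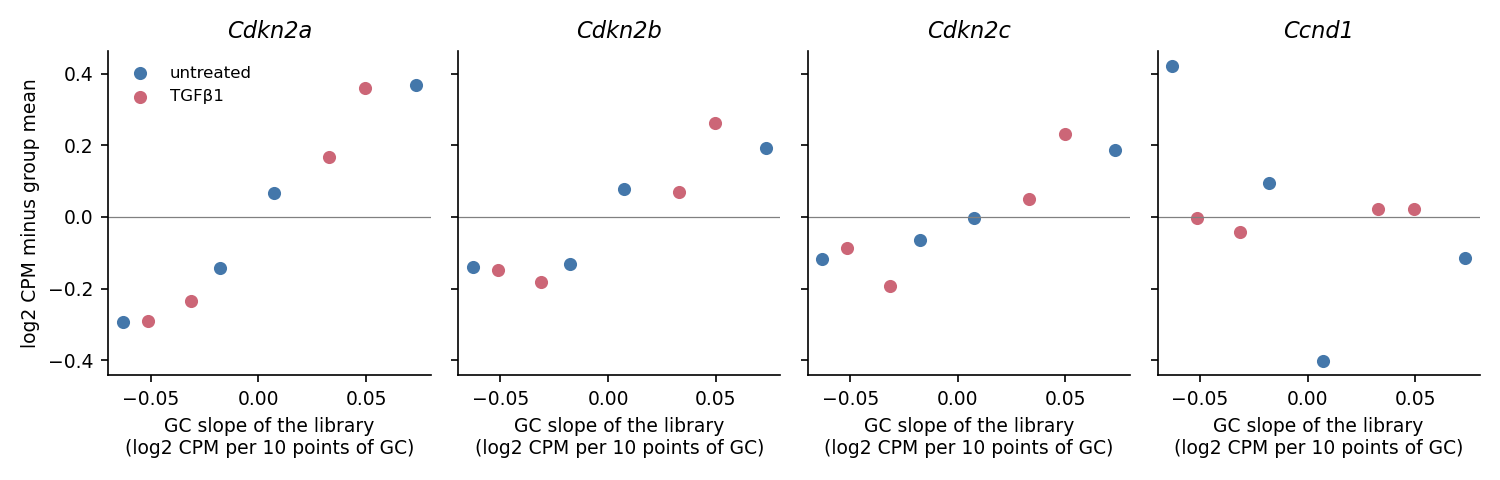
Deviation of log2 CPM from the group mean in each library (vertical) against the slope of log2 CPM on gene GC content in that library (horizontal, log2 CPM per 10 points of GC) for 4 of the genes; untreated libraries are blue and TGFβ1-treated ones red. For Cdkn2a the libraries rise with the slope from -0.0628 to 0.0732. The untreated libraries of Ccnd1 mostly run the other way, and only libraries 1 and 2 are out of the reverse order.

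The partners of these genes, the CDKs and other cyclins, were called lower more often than higher. Of 13 genes, 2 were called higher, 8 lower and 3 were not called, with a median log2 fold change of -0.25, against 37.6% of all genes called higher and 38.0% lower. The CDKs that D-type cyclins activate fell slightly, Cdk4 from 432 ± 14.7 to 331 ± 2.35 CPM (SD, n = 4, log2 fold change -0.38, edgeR FDR 2.93e-22) and Cdk6 from 86.6 ± 2.36 to 72.6 ± 0.902 CPM (SD, n = 4, log2 fold change -0.25, edgeR FDR 1.55e-08). Cdk2, the kinase that p21 and p27 inhibit, fell by 0.19 on the log2 scale. The E-type cyclins that activate it in late G1 did not pass the test, with Ccne1 at 32.3 ± 3.89 and 35.3 ± 1.71 CPM (SD, n = 4, edgeR FDR 0.136) and Ccne2 at 62.5 ± 3.95 and 60.8 ± 2.40 CPM (SD, n = 4, edgeR FDR 0.529). The genes of S phase and mitosis changed far more: the log2 fold change was -2.18 for Ccna2, -1.40 for Cdk1, -2.43 for Ccnb2 and -1.73 for Ccnb1. The 2 genes called higher were Cdk7 (0.30) and Ccnh (0.14), which encode the kinase and the cyclin of the CDK-activating kinase, and only 1 of them or neither was called under 5 of the 11 alternatives that kept all libraries, and without untreated library 2 or TGFβ1-treated library 1, 3 or 4.

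The enzymes that set the phosphorylation of CDKs fell in 4 of 5 genes (38.0% of all genes were called lower), with a median log2 fold change of -1.16. The largest falls were those of the phosphatases Cdc25b, from 64.2 ± 2.67 to 13.9 ± 1.03 CPM (SD, n = 4, log2 fold change -2.21), and Cdc25c (-1.69). Of 8 genes for ubiquitin ligases that degrade the inhibitors or the D-type cyclins, 1 was higher, 5 lower and 2 not called, with a median of -0.42, against the same background. Skp2, which targets p27 for degradation, went from 46.9 ± 1.57 to 35.8 ± 1.26 CPM (SD, n = 4, log2 fold change -0.39, edgeR FDR 5.01e-13), and its cofactor Cks1b fell by 1.26 on the log2 scale. The RNA of p27 and that of its ligase thus both fell. Dtl (-0.64) and Ddb1 (0.45), parts of a ligase that degrades p21, went in opposite directions.

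Among 16 transcription regulators of the inhibitor genes, 5 were called higher, 9 lower and 2 were not called, with a median log2 fold change of -0.22. These counts lie near the background of all genes, of which 37.6% were called higher, 38.0% lower and 75.6% in either direction. Smad3, which carries the TGFβ signal to the nucleus, rose from 84.7 ± 4.08 to 139 ± 5.21 CPM (SD, n = 4, log2 fold change 0.71). Foxo3, an activator of Cdkn1b, rose by 0.97 on the log2 scale, while Foxo4, of the same family, fell from 44.0 ± 3.63 to 21.9 ± 2.57 CPM (SD, n = 4). Myc, which represses Cdkn2b and Cdkn1a and which TGFβ lowers in many epithelial cells, was at 78.9, 80.5, 71.6 and 57.7 CPM in untreated and at 90.8, 84.6, 94.8 and 93.0 CPM in TGFβ1-treated SV-LECs. Every treated library was above the untreated ones (log2 fold change 0.33, edgeR FDR 0.000193). The part of Myc in the rises of Cdkn1a and Cdkn2b was not tested. Klf4 fell from 145 ± 9.20 to 59.6 ± 4.43 CPM (SD, n = 4, log2 fold change -1.28). Of the 4 Polycomb genes in the list, Rnf2 was called higher (0.11, edgeR FDR 0.0177, so not at an FDR of 0.01), and Bmi1 (-0.62), Ezh2 (-0.44) and Cbx7 (-0.35) were called lower; the last 3 are named here after their values were seen.

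The target genes of p53 other than Cdkn1a mostly rose. Of 19 such genes, 14 were called higher, 1 lower and 4 were not called, with a median log2 fold change of 0.93, beside 1.14 for Cdkn1a and a background of 37.6% of all genes called higher. Mdm2, the ubiquitin ligase of p53, was at 289, 280, 307 and 347 CPM in untreated and at 1371, 1516, 1418 and 1411 CPM in TGFβ1-treated SV-LECs. Its groups were far apart, with a log2 fold change of 2.22 (SE 0.0621, edgeR FDR 1.79e-256), a larger rise than that of any of the 10 genes. Btg2 (1.42) and Ccng1 (1.35), a growth inhibitor and a cyclin relative, rose as well, whereas Gadd45a, a stress sensor, was the gene that fell (-1.33). The RNA of p53 itself, Trp53, rose from 152 ± 4.95 to 216 ± 7.47 CPM (SD, n = 4, log2 fold change 0.51, edgeR FDR 9.99e-32). The activity of p53 was not measured.

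All 10 proliferation genes fell, against 38.0% of all genes, with a median log2 fold change of -1.71. Mki67, which encodes the Ki-67 antigen of cycling cells, went from 346 ± 14.8 to 96.9 ± 7.16 CPM (SD, n = 4, log2 fold change -1.84, edgeR FDR 5.60e-243), and the mitotic kinases Aurkb (-2.18) and Plk1 (-2.10) fell further. Cdkn2c (-1.61), Cdkn2d (-1.43), Cdkn1c (-0.93) and Cdkn1b (-0.83) all lay within the range of these genes, which was wide, from -2.18 to -0.38. Each of these inhibitors fell less than the median of the list, and Cdkn1c and Cdkn1b fell less than most of its genes. The 3 D-type cyclins, whose proteins promote the G1 to S transition, lay on the other side of 0. How many cells of each group were in each phase of the cycle was not measured.

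**Figure D5:**
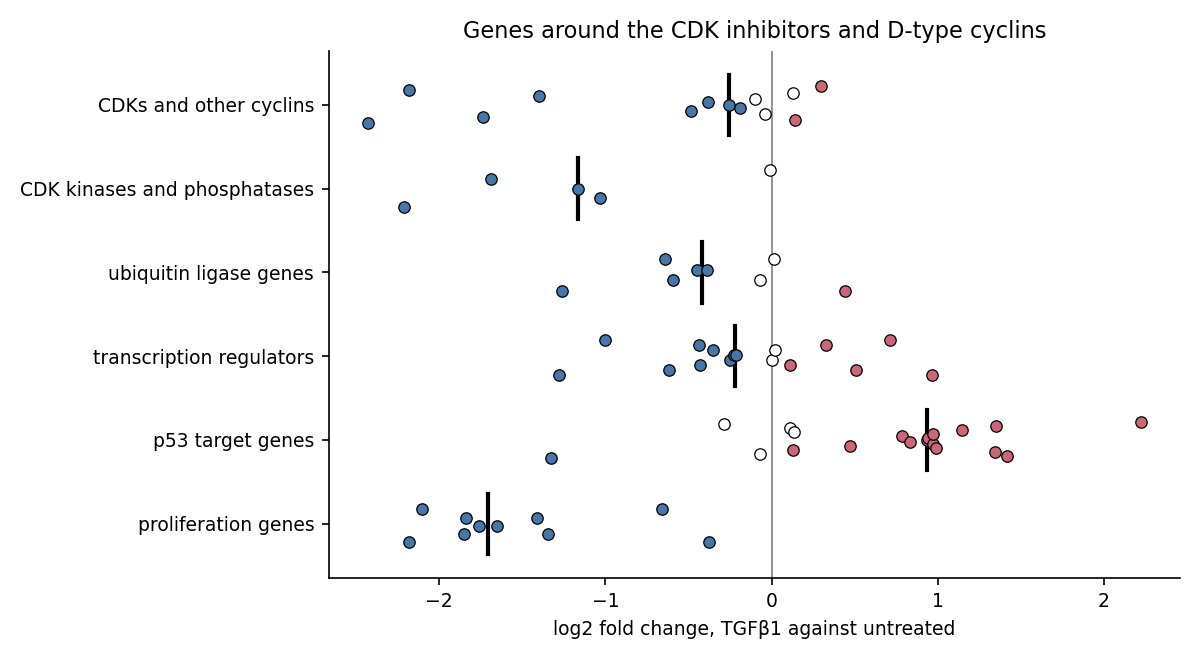
Log2 fold change of each tested gene in 6 lists around the CDK inhibitors and D-type cyclins (points; red called higher, blue called lower, open not called), with the median of each list as a black bar. The medians run from -1.71 for the proliferation genes to 0.93 for the p53 target genes.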

How the data were processed

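Raw counts of reads per gene, deposited by the authors for 8 libraries, were analysed. The authors prepared poly(A) RNA with a stranded kit and sequenced single 75-base reads on an Illumina instrument. The submitters' processing notes name bcl2fastq 2.20.0.422, STAR 2.7.3a and featureCounts 1.5.1, with builds GRCm38 and mm10. The strand setting of the counting was not given in the sources used here. Libraries were grouped by their labels.

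The 10 genes and the gene lists were chosen with earlier results of these data known. The genes named beside the 10 are 14 chosen by symbol (Cdk1, Cdk2, Cdk4, Cdk6, Ccne1, Ccne2, Ccna2, Myc, Trp53, Mdm2, Smad3, Skp2, Mki67, Mtap) and, among the other genes of each list, the 2 called genes with the largest rise and the 2 with the largest fall, except 1 gene that is not reported here. Genes that overlap one of the 10, and markers by count, are named too.

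The tests were run in edgeR 4.0.16 (R 4.3.3): filterByExpr (13818 of 55471 genes kept), TMM, glmFit and glmLRT, with a prior count of 0.125, Benjamini-Hochberg adjustment over all genes tested and an FDR of 0.05. Standard errors come from the Fisher information of the fit, and intervals are 95% normal intervals. CPM and RPKM use TMM-scaled library sizes, and RPKM the union of exons in GENCODE M21 (GRCm38). Shares were compared with exact permutation tests in scipy 1.17.1. Libraries within each group were further apart than counting error (chi-square per degree of freedom 2.37 to 7.84) and none was counted as a duplicate. A count of 3 corresponded to 0.113 to 0.162 CPM. Alternatives were edgeR's quasi-likelihood test, DESeq2 1.42.0, its size factors, total counts, no filter, a filter of 1 CPM in 4 libraries, a replicate block, an FDR of 0.01, a prior count of 2 and each library left out; a GC covariate and edgeR's glmTreat were added after the data were seen. The tests were tried on simulated data first.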

Additional observations from a re-analysis of the deposited data

Results flagged for a closer look

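None of the 10 genes had an outlying library by Dixon's test at its 95% critical value for 4 libraries. Of the 48 groups of 4 libraries tested over the 10 genes and 14 partner genes, 2 held an outlying library, and chance alone flags about 5% of such groups. Cdk6 was high in untreated library 2, at 90.1 CPM with a gap to the next library of 0.860 of its group's range. Ccne1 was high in TGFβ1-treated library 1, at 37.8 CPM with a gap of 0.911 of the range.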

How the results depend on the processing

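The study's quadruplicates are technical replicates, so no alternative tests variation between cultures. Over the 19 alternatives in edgeR and DESeq2, 4 to 5 of the 10 genes were called higher and 4 lower, and 22 to 28 of the 78 tested genes of the 8 lists were called higher (27 in the reported fit) and 31 to 41 lower (39). With the replicate number as a replicate block, 5 of the 10 genes were higher and 4 lower, and 27 list genes higher and 39 lower. The labels do not say that the numbers pair the libraries. Same-numbered libraries of the 2 groups correlated between -0.193 and -0.0336 in their deviations from the group means, and other-numbered ones between -0.227 and 0.250. These ranges overlap, so the correlations cannot decide whether the libraries were paired. All alternatives kept the direction and call of Cdkn1a, Cdkn1b, Cdkn1c, Cdkn2b, Cdkn2c, Cdkn2d, Ccnd1 and Ccnd2. The log2 fold change ran from 1.07 to 1.17 for Cdkn1a, from 0.44 to 0.60 for Cdkn2b and from 2.04 to 2.14 for Ccnd2. That of Ccnd3 was 0.09 with total counts (FDR 0.0835), its call being lost there and in glmTreat (FDR 1). Leaving out each library in turn moved Cdkn2a from -0.19 to 0.08, and the difference in the share of Ccnd1 from -0.892 to 1.64 percentage points against 0.237; the values that changed sign were 0.077, 0.021 and 0.037 for Cdkn2a and -0.134, -0.892 and -0.00487 for Ccnd1. Shares could not pass 0.05 with a library left out, since 3 against 4 libraries allow no exact p under 0.0571. The share of Cdkn2b changed by 0.281 points with the longest transcript. Depth limits Cdkn1c most, at 30 to 93 counts per library.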
